A study of Mus musculus with 2 samples.

Results

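The mouse immunoglobulin heavy chain locus Igh was described here by its splice junctions, the gaps with which reads were aligned to the genome. Members were all junctions of the deposited list on chromosome 12 with both ends between positions 114400000 and 117300000 of build mm9, 3054 of the 446811 junctions in the series. Each junction carried a read count, equal to the sum of the fields R1 and R2 in its name, called the first and the second field below. The fields were taken as the counts of the 2 libraries. The sources used here do not define them or say which replicate each stands for, so neither field was assigned to a sample. Paired values below give the first field before the second.

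The RNA came from tissue labelled large intestine. The mice were adults of the inbred strain C57BL/6J, 8 weeks old, with no treatment and no genetic change given. The labels describe 1 group with 2 biological replicates under a single donor record, and both replicates are labelled as pools of littermates of either sex. PolyA-selected RNA longer than 200 nt was read as stranded pairs of 76 nt. There are no conditions to compare, and a difference between the fields is 1 library against 1, with no replicate check and no p-value. Intervals are exact Clopper-Pearson 95% intervals that cover counting error only, since the reads carry no molecular identifiers.

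A heavy chain gene is assembled in B lineage cells by joining a variable (V), a diversity (D) and a joining (J) segment, which removes the DNA between them and leaves their sequence fused with trimmed and added bases. In the transcript, splicing removes the leader intron of the V gene and then the stretch from the J segment to the first exon of a constant gene, which sets the antibody class: Ighm and Ighd for IgM and IgD, the Ighg genes for IgG, Ighe for IgE and Igha for IgA. Class switching brings a downstream constant gene next to the J segments by deleting DNA, so a read of switched RNA aligned to the unrearranged genome appears as a very long junction. Plasma cells of the gut wall are known for making IgA.

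Junctions were named without converting any position. The introns and the exons between them of 7 constant genes were recognised by their exact lengths, taken from the GENCODE M21 annotation of build mm10, at 1 place each (32 introns). V, D and J segments were then named by their distance from the first Igha exon, which was the same in both builds for all 32 of these introns. In all, 146 of 324 annotated introns of the region were found in the list, holding 65.2% of the window's reads.

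Of the splices that leave a J segment, those with most reads led to the first exon of Igha, the constant gene of IgA. The J segments lie on the minus strand of chromosome 12 in build mm10, at 113429781 to 113429833 (Ighj1), 113429468 to 113429515 (Ighj2), 113429085 to 113429132 (Ighj3) and 113428514 to 113428567 (Ighj4). The joined letters, from the GENCODE M21 transcripts, show each germline J segment in lower case and the first 30 bases of the Igha first exon in capitals (mm10, 113260207 to 113260236):
Ighj1 to Igha: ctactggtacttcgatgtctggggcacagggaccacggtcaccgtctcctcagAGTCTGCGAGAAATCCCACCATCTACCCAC
Ighj2 to Igha: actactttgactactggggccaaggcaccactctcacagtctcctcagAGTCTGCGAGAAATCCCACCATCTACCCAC
Ighj3 to Igha: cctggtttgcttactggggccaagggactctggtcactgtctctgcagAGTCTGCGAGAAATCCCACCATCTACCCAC
Ighj4 to Igha: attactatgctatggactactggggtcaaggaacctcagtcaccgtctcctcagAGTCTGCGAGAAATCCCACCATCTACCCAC

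In the same way, the first 30 bases of the other first constant exons tell to which class a J segment was spliced, and the 4 Ighg genes are close to each other there. They are given from 5′ to 3′ in capitals:
Ighm: AGAGTCAGTCCTTCCCAAATGTCTTCCCCC
Ighd: GTAATGAAAAGGGACCTGACATGTTCCTCC
Ighg3: CTACAACAACAGCCCCATCTGTCTATCCCT
Ighg1: CCAAAACGACACCCCCATCTGTCTATCCAC
Ighg2b: CCAAAACAACACCCCCATCAGTCTATCCAC
Ighg2c: CCAAAACAACAGCCCCATCGGTCTATCCAC
On build mm10, minus strand, these stretches start at 113422701, 113416295, 113361203, 113330494, 113307904 and 113288903, in the order given.

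At the other end of the transcript, the leader intron joins the signal peptide exon to the V exon. The genes with most reads in either field are shown with the last 30 bases of the leader exon in lower case and the first 30 bases of the V exon in capitals, from the GENCODE M21 transcripts of the C57BL/6J reference:
Ighv1-15: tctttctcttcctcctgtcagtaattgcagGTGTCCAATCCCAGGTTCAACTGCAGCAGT
Ighv2-3: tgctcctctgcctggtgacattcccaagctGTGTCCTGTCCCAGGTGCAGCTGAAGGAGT
Ighv2-2: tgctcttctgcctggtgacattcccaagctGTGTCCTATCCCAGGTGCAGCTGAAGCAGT
Ighv2-9: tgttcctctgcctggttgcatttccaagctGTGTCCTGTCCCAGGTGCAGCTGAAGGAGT
Ighv3-3: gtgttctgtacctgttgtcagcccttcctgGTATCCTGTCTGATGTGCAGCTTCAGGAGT
Their leader introns, on the minus strand of chromosome 12 in mm9, ran from 115895869 to 115895951, 114849699 to 114849782, 114826782 to 114826865, 115117611 to 115117694 and 115434957 to 115435043.

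The window held 559739 junction reads, 1.30% of the 43037344 in the series. The first field held 349341 of them, 1.72% of its 20305017 reads, and the second 210398, 0.926% of its 22732327. The first field thus gave 62.4% of the window's reads (62.3 to 62.5), against 47.2% over the series. The minus strand, on which the constant, J and D segments and the named V genes lie, had 2969 junctions with 559473 reads, and the plus strand had 85 with 266. A single read supported 1588 junctions (52.0%), while 388 had at least 10 reads and together held 99.1% of the reads.

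Tissue markers were checked in the gene tables. Car1 and Aqp8, genes of colon epithelium, reached 0.23 and 0.27 TPM (Car1) and 0.04 TPM (Aqp8) in replicates 1 and 2. The ileal bile acid binding protein gene Fabp6 was at 477 and 5279 TPM and the sucrase-isomaltase gene Sis at 281 and 79.7 TPM, so the levels go against the tissue label. Xist had 17 and 12563 expected counts and the Y-linked gene Kdm5d 1290 and 1, which goes against the label of pooled sexes. The 10 plasma cell genes were all at 1 TPM or more in both libraries and came to a sum of 1822 and 1112 TPM, led by Jchain, which links IgA and IgM chains, at 1479 and 778 TPM. The other 9 summed to 343 and 334 TPM. Among them Xbp1 alone was higher in replicate 2, at 124 and 172 TPM, and the rest were lower there. Derl3 had 41.1 and 21.2 TPM, Tnfrsf17 13.8 and 6.99 TPM and Mzb1 55.93 and 38.95 TPM, while Sdc1 was nearly level at 71.0 and 68.9 TPM. Among B cell genes, the B cell receptor subunit gene Cd79a had 45.7 and 69.6 TPM in replicates 1 and 2, and Cd79b had 29.9 and 49.1 TPM. The 4 T cell genes, markers of another lymphocyte, summed to 36.2 and 37.1 TPM. In bulk tissue fewer cells of a type and less RNA per cell cannot be told apart.

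Junction length separated the steps of heavy chain splicing only in part. Junctions of 151 to 1000 nt on the minus strand held 59.2% of the window's reads, most of them in introns of constant genes. Junctions of 20001 to 200000 nt held 33.1%, most of them from a J segment to a constant gene, where this length class held 3.83% over the series. Junctions of 71 to 150 nt, the class of most leader introns, held 6.10% in 284 junctions. That class also took constant gene introns, such as those of 107, 111 and 118 nt in Ighm. The J splices to Ighm, of 5783 to 7050 nt, fell in the class of 1001 to 20000 nt, which held 0.698%. The 2432 nt intron of Igha fell there too. Junctions over 200000 nt numbered 868 and held 0.873% of the reads. By field the shares were 59.2% and 59.0% for 151 to 1000 nt, 33.0% and 33.2% for 20001 to 200000 nt and 6.30% and 5.76% for 71 to 150 nt.

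**Figure D1:**
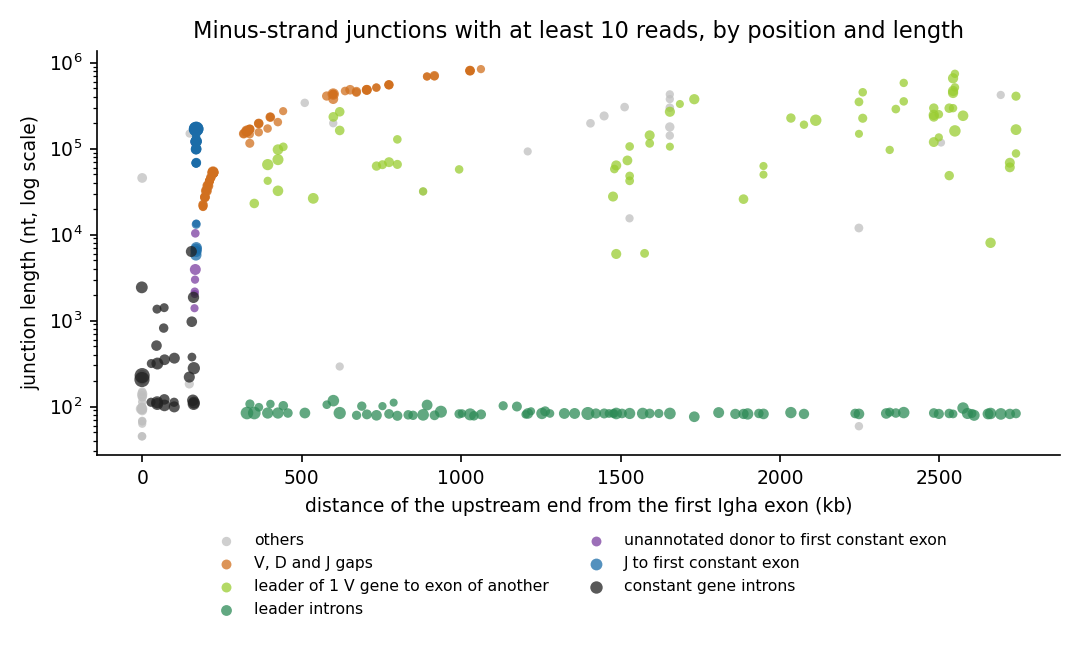
Minus-strand junctions with at least 10 reads, by the distance of their upstream end from the first Igha exon (kb) and their length (nt, log axis), with larger points for more reads and colours for junction classes. Leader introns form a band near 83 nt along the V genes, the J splices to constant genes stand in a column of 5783 to 169544 nt, and the V, D and J gaps lengthen with distance up to 840182 nt among those with 10 reads.

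Nearly all splices from a J segment led to Igha. Of the 176555 reads from a J segment to a first constant exon, 173177 (98.1%, 98.0 to 98.2) ended at Igha. The share was 98.3% (98.2 to 98.3) and 97.8% (97.7 to 97.9) in the fields. In both fields the IgA gene thus took almost all J splices.

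Ighj2 was the J segment joined to Igha most often, with 33190 and 30960 reads, 30.8% and 47.3% of the Igha splices. Ighj3 had 28754 and 10666 reads (26.7% and 16.3%), and Ighj4 had 26592 and 12061 (24.7% and 18.4%). Ighj1 had 19238 and 11716 reads, the same share of 17.9% in each. The order Ighj2, Ighj3, Ighj4, Ighj1 of the first field became Ighj2, Ighj4, Ighj1, Ighj3 in the second. On build mm9 these junctions started at 114498448 and ended at 114667991 (Ighj1), 114667678 (Ighj2), 114667295 (Ighj3) and 114666724 (Ighj4).

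Ighm, the constant gene used before switching, had 129, 175, 136 and 160 reads from Ighj1 to Ighj4 in the first field. The second field had 189, 242, 183 and 188. It took 0.547% (0.504 to 0.593) and 1.20% (1.12 to 1.28) of the J splices in the fields. It came after Igha and Ighg2b in the first field, and ahead of Ighg2b in the second. Ighj2 was again the most frequent partner, with 29.2% (25.6 to 33.0) and 30.2% (27.0 to 33.5) of the Ighm splices, while Ighj1 had 21.5% and 23.6%.

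Among the IgG genes, Ighg2b led with 147, 311, 152 and 248 reads from Ighj1 to Ighj4 in the first field. The second had 62, 213, 70 and 96. Ighg2b thus took 0.782% (0.731 to 0.836) and 0.659% (0.599 to 0.724) of the J splices. Ighg1 had 42, 144, 73 and 74 reads, then 15, 47, 24 and 37. Ighj2 was thus the most frequent partner of both in both fields. Ighg3 had 26, 18, 16 and 8 reads, then 28, 20, 25 and 6, so that here Ighj1 led and Ighj4 was last in both. Ighg2c had 30 reads in all, and Ighd, the IgD gene that is made by splicing without a DNA deletion, had 44. No J segment was spliced to Ighe, where a count of 0 allows a share of up to 0.00170% of the J splices by a limit of 3 counts and up to 0.00209% by the exact interval.

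**Figure D2:**
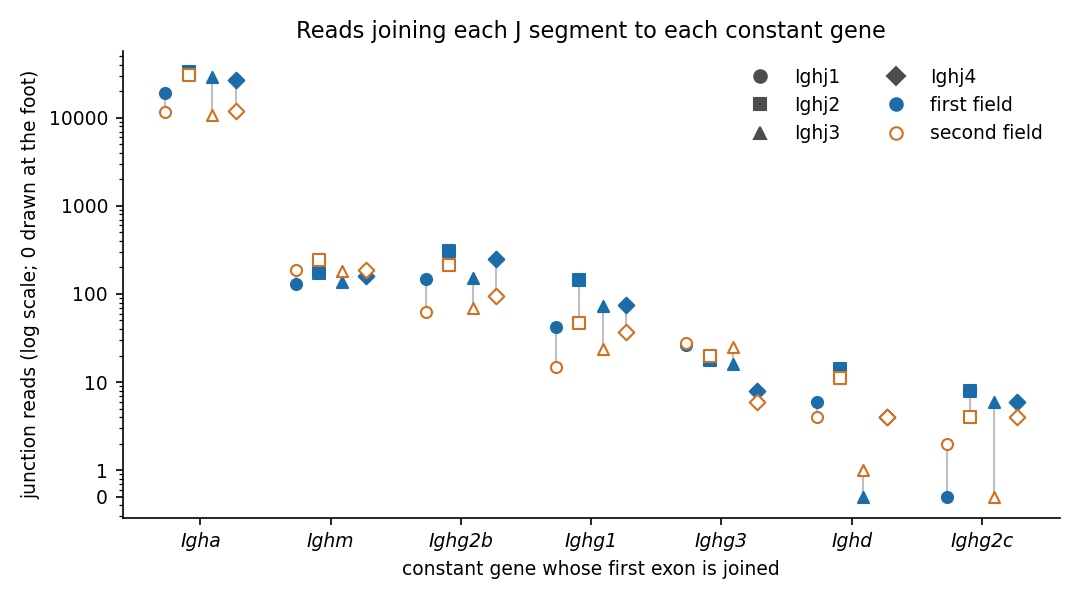
Reads joining each J segment (marker shape) to the first exon of each constant gene, in the first field (filled) and the second field (open), on a log axis with 0 drawn at the foot. Igha lies between 10666 and 33190 reads, while all other constant genes stay at or below 311.

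Introns inside the constant genes also placed Igha far above the other classes. The Igha introns between CH1 and CH2 (229 nt, 114497916 to 114498144, mm9) and between CH2 and CH3 (206 nt, 114497374 to 114497579) were the junctions with most reads of the window, with 94066 and 57567 reads for the former and 110328 and 64408 for the latter. Igha held 97.5% and 95.8% of the reads in constant gene introns. Ighm had 0.870% and 2.18% and Ighg2b 0.951% and 1.02%, so the order of these 2 genes turned between the fields, as it did in the J splices. Ighe had 8 reads in 2 introns, all in the first field. In the gene tables Igha (ENSMUSG00000095079.2) had 17969 and 8967 TPM in replicates 1 and 2, Ighm (ENSMUSG00000076617.5) at 107 and 149 TPM and Ighg2b (ENSMUSG00000076613.3) at 154 and 81.9 TPM. The 4 J segments, by contrast, had 0 expected counts in both gene tables, although 176555 junction reads ended at them.

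Within 1 gene the introns were covered unequally. The first intron of Ighd had 20 reads, whereas those at its membrane exons had 294 and 298. In Ighg1 the 3 introns before the membrane exons had 200, 662 and 162 reads. The cause of this unequal coverage was not tested.

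Heavy chains exist as secreted and membrane forms, and only the latter uses the intron from the last CH exon to the membrane exons. For Igha this intron (2432 nt, 114494609 to 114497040, mm9) had 406 and 441 reads, or 0.368 and 0.685 for each 100 reads of the CH2 to CH3 intron. For Ighm the matching intron (1860 nt) had 128 and 262 reads, or 34.2 and 36.8 for each 100 reads of the intron between its last CH exons. The ratio was thus far lower in Igha than in Ighm in both fields. It was 15.8 and 14.8 for Ighg1, from 16 and 9 reads, and 1.87 and 2.82 for Ighg2b, from 11 and 15. The next intron, between membrane exons, had 70 and 92 reads in Ighg2b and 23 and 19 in Ighg1. In Ighg1 the base of the ratio was an intron with 101 and 61 reads, and the one before it had 430 and 232. In Ighm the next intron, between membrane exons, had 212 and 401 reads. The base of its ratio had 374 and 711 reads, and the intron before it 709 and 924. The values of Ighg1, Ighg2b and Ighm thus depend on the introns chosen.

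A donor that the annotation does not show lay between Ighj4 and Ighm, with its introns beginning at 114664865 (mm9), 1859 nt downstream of the Ighj4 donor. The stretch between the J segments and Ighm is where the I mu exon of germline transcripts is known to start, and no exon is annotated there in GENCODE M21. This donor was spliced to 6 first constant exons with 453 and 296 reads. Igha took 257 and 156 of them, Ighm 141 and 115, Ighg2b 41 and 17 and Ighd 9 and 8. For Ighm these reads came to 18.3% of its J splices and for Igha to 0.238%. A further 31 donors between 114662239 and 114664227 were spliced to the Ighm first exon with 125 reads in all.

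J segments also skipped the first constant exon. From them 84 and 47 reads led to the CH2 exon of Igha and 26 and 56 to its CH3 exon, 0.0756% and 0.0474% of the number spliced to the first exon. Junctions inside constant genes that match no annotated intron numbered 279 with 1690 reads. Several lay within a few bases of the annotated Igha introns, such as 1 of 205 nt with 48 and 33 reads beside the intron of 206 nt.

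Leader introns were found for 108 of 168 V genes with an annotated leader intron, 99 junctions of functional V genes and 10 of pseudogenes. They had a median length of 83 nt (76 to 254) and 27354 reads in all. Few genes dominated: the 6 with most reads over both fields together held 51.1% of the leader reads, 57.8% and 36.8% by field. Those 6 were not the leading genes of each field. The 5 genes with most reads in each field by itself held 57.8% and 45.0% of its leader reads. Family 1 held 49.9% and 44.7% of the leader reads, family 2 32.3% and 22.9%, and family 3 4.81% and 18.8%.

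The leading V genes were not the same in both fields. Ighv1-15 had 4589 reads, the most of all, against 124 in the second field, where it ranked 18. Ighv2-3 had 2672 and 79 reads, and Ighv2-9 had 1530 and 20. Ighv3-3 went the other way with 2 and 1120 reads, as did Ighv1-31 with 3 and 538 and Ighv1-84 with 0 and 135. Ighv2-2 was near the top in both, with 1247 and 1446 reads, and Ighv3-6 had 739 and 417. The V exon starts shown above are identical in Ighv2-3 and Ighv2-9, whose leader ends differ at some bases. They differ little between Ighv2-3 and Ighv2-2, so reads of single family members are uncertain.

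**Figure D3:**
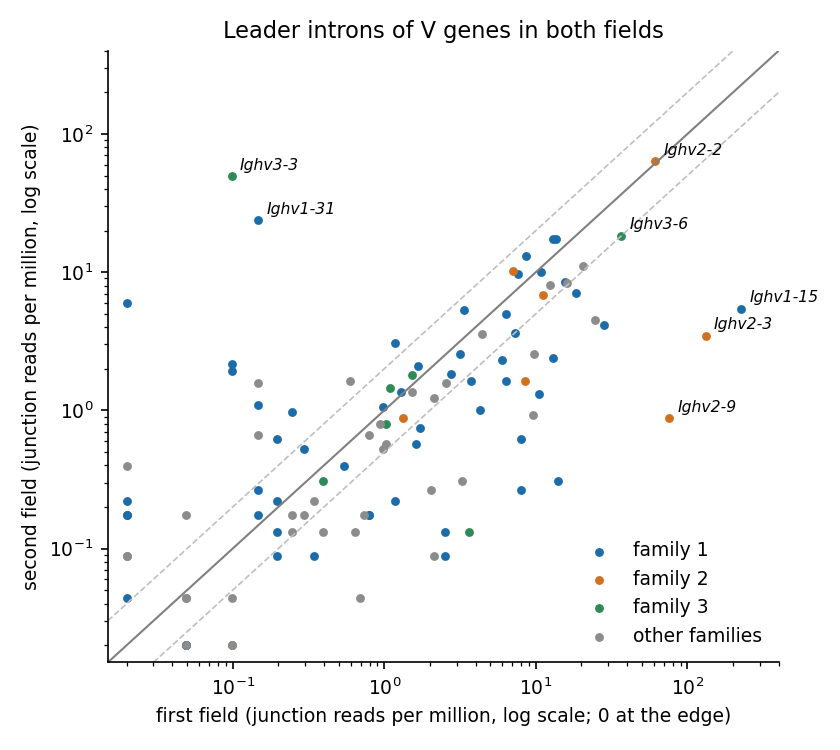
Junction reads of each V gene leader intron, scaled to the total of its field, for the first field (x) and the second field (y), log axes with 0 at the edge, coloured by family, with a line of equality and dashed lines at 2-fold. Ighv2-2 lies on the line of equality, Ighv1-15, Ighv2-3 and Ighv2-9 far below it and Ighv3-3 and Ighv1-31 far above it.

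The fields differed more within the window than over the series. The ratio was log2 of the second over the first field, each scaled to its total over all junctions with 1 read added, and a junction counted as apart at 2-fold or more with at least 20 reads. In the window 146 of 262 such junctions (55.7%) were apart, where percent called over all 104787 junctions of the series was 19.7. The first field was higher in 106, against 15.9% over the series, and the second in 40, against 3.84%. The median log2 ratio was -0.69 in the window and -0.21 over the series. When the fields were scaled to their totals within the window, 154 were apart, 75 and 79 in each direction, against 34.1% apart over the series. That scaling moves all junctions alike, and the medians became 0.19 in the window and 0.67 over the series, so the window lay below the series under both scalings.

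The classes of junctions differed in how far the fields lay apart. Of the constant gene introns with 20 reads 4 of 27 were apart, and of the J splices to a first constant exon 9 of 20, all higher in the first field. The leader introns gave 39 of 73 (53.4%) and the V, D and J gaps 59 of 65 (90.8%). At 100 reads or more 21 of 39 leader introns were apart, and 16 of them at least 4-fold, with ratios from -6.35 (Ighv2-9) to 8.41 (Ighv3-3) on the log2 scale. Over the series 15.2% of junctions were apart at a minimum of 50 reads. The series share at 100 reads or at 4-fold was not counted. All these shares come from 1 pair of libraries and from junctions that share genes and transcripts, and no difference between classes was tested.

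**Figure D4:**
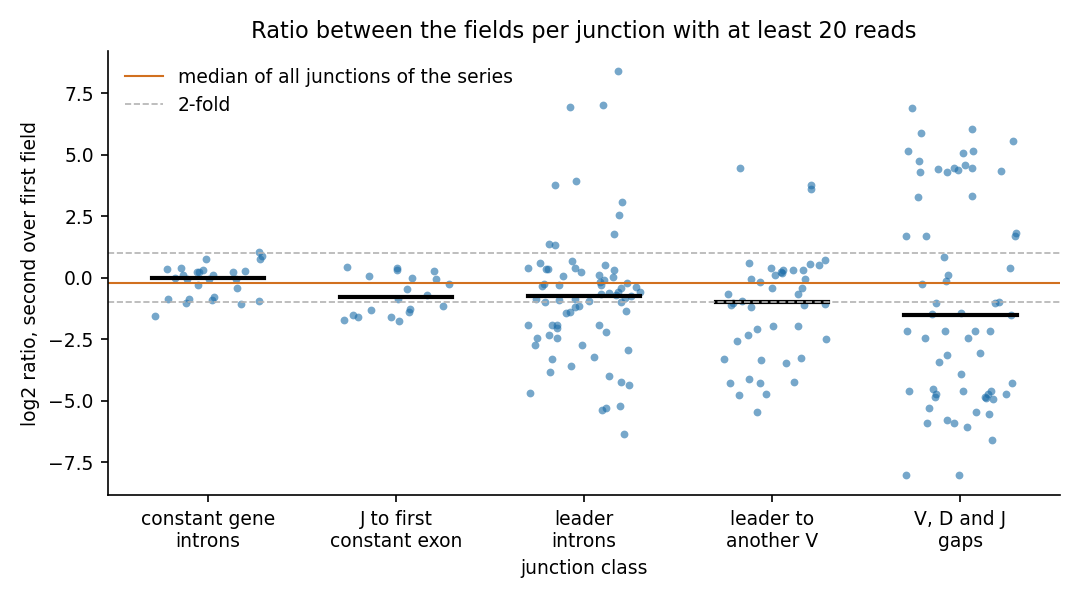
Log2 ratio of the second over the first field for each junction with at least 20 reads, by class, with the class median as a black bar, the series median of -0.21 as a coloured line and 2-fold as dashed lines. Constant gene introns range from -1.56 to 1.05, with 4 of 27 at 2-fold or beyond, whereas 59 of 65 V, D and J gaps are.

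A read across a V(D)J join of rearranged DNA aligns to the germline genome with a gap between segments, which is not a splice. There were 265 D to J gaps with 3370 reads, 226 V to J gaps with 2117 and 176 V to D gaps with 1144. The list gives each junction a further flag, C, that the sources used here do not define. It was 0 for 664 of the 667 gaps and 1 for all 146 junctions that match an annotated intron. Over the window it was 0 for 2106 of 3054 junctions, so a value of 0 does not set the gaps apart. It was 1 for all 291 junctions from the leader exon of 1 V gene to the V exon of another, which match no annotated intron.

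For the gaps with at least 55 reads whose ends both lie inside annotated segments, the germline letters left on each side are shown, with the upstream segment in lower case and the downstream one in capitals:
Ighd1-1 to Ighj4: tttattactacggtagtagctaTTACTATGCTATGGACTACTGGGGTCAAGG
Ighd1-1 to Ighj1: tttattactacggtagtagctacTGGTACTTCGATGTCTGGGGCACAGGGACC
Ighd1-1 to Ighj2: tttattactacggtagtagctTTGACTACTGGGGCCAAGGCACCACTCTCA
Ighd1-1 to Ighj2, another gap: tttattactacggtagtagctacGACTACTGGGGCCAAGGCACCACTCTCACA
Ighd1-1 to Ighj2, a further gap: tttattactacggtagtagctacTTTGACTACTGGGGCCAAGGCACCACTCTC
Ighd1-1 to Ighj1, another gap: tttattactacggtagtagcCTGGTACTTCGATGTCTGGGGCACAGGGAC
Ighd2-5 to Ighj3: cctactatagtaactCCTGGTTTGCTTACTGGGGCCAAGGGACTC
Ighv3-1 to Ighd1-1: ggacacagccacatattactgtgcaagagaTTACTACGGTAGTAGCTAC
The listed ends of these gaps on mm9 were, in the same order, 114666778 to 114720381, 114668041 to 114720380, 114667721 to 114720382, 114667719 to 114720380, 114667722 to 114720380, 114668042 to 114720383, 114667344 to 114704239 and 114720400 to 115202598. The Ighd2-6 to Ighj3 gap (114667344 to 114699581), with the letters and reads of the Ighd2-5 gap, is not printed again.

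Of the 8 gaps printed, 3 had reads in 1 field only. The Ighd1-1 to Ighj4 gap shown had 333 and 7 reads. The first Ighd1-1 to Ighj1 gap had 178 and 72 reads, and the other one, 2 nt longer as an alignment gap, had 0 and 124. The 3 Ighd1-1 to Ighj2 gaps had 30 and 120, 27 and 100, and 48 and 26 reads in the order printed. The Ighd2-5 to Ighj3 gap had 55 and 0 reads and the Ighv3-1 to Ighd1-1 gap 0 and 62. Joins of the same segments that differ by a few bases were thus high in different fields.

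Across all gaps with at least 10 reads, 46 of 113 (40.7%) had reads in both fields. Over all junctions of the series with at least 10 reads 99.0% did, as did all 51 constant gene introns and J splices and 82 of 83 leader introns. Of the 25 gaps with at least 50 reads 10 were in 1 field only and 23 were at least 2-fold apart. Over all junctions of the series with at least 50 reads 15.2% were apart. The gap with most reads, from Ighv5-17 to Ighj4 (430577 nt, 114666779 to 115097355, mm9), had 166 and 330 reads. The next, from Ighv2-2 to Ighj4 (159694 nt), had 374 and 47, while Ighv2-2 to Ighj2 had 4 and 110.

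Gaps into J segments ended near the edge at which the recombinase cuts. Over the 5487 reads of V to J and D to J gaps, 80.5% ended within 5 nt of the annotated 5′ edge of the J segment, with a median of 2 nt and at most 28 nt of J removed. Bases aligned beyond the edge were limited to 12 nt by the rule that gives an end to a segment. Ighj2, for which a second transcript is annotated beyond its edge, had 4 reads farther out. The median was 4 nt for Ighj1, 5 nt for Ighj2 and Ighj3 and 0 nt for Ighj4. Ighj4 and Ighj2 had more reads aligned beyond the edge, 32.9% each, than Ighj1 (10.02%) and Ighj3 (10.6%). At Ighj4, 425 reads lay 5 nt beyond the edge, and the Ighv2-2 gap gave 421 of them. Whether bases aligned beyond the edge came from the germline or were added in joining was not tested. Where a base is shared by both segments its side is set by the aligner, and single joins with many reads weigh on these shares.

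**Figure D5:**
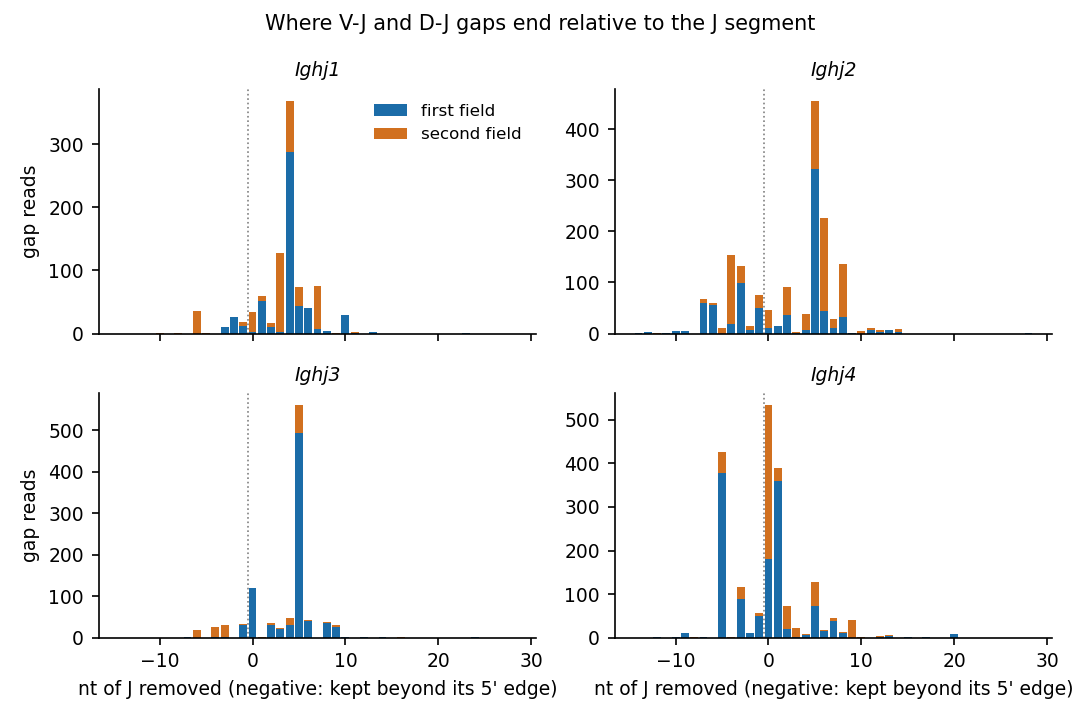
Reads of V to J and D to J gaps by the number of J bases removed at the 5′ edge (x, nt), for each J segment, with the first field in blue and the second field in orange, stacked. Negative values are reads aligned beyond the edge, which the axis label calls kept. Most reads lie within 5 nt of the edge, and single positions hold many reads, such as 5 nt in Ighj3.

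Among D segments, Ighd1-1 held 56.7% of the D to J reads, 49.9% and 70.5% by field. Of 22 annotated D segments 9 were seen in these gaps. Ighd1-1 has 23 annotated bases, while Ighd4-1, seen with 19 reads, has 11. Among the segments not seen, several of the Ighd5 group, such as Ighd5-1, have 10. Others not seen were longer, such as Ighd5-7 and Ighd6-1 with 29 bases and Ighd3-1 with 17. Whether short segments were missed by the alignment was not tested. Ighd2-5 and Ighd2-6, whose 17 annotated bases are identical, had 374 and 375 reads. Their gaps to Ighj3 at the same J base had 243 and 245 reads, all in the first field, and their reads cannot be told apart. Ighd2-4 followed with 213 reads and Ighd2-7 with 198.

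The order of J segments in the gaps differed from that in the splices to Igha in the first field, where Ighj4 led, and was the same in the second. Ighj4 held 36.8% and 32.4% of the gap reads, Ighj2 23.4% and 39.6%, Ighj3 24.3% and 8.74%, and Ighj1 15.5% and 19.3%. The second field had a higher share of Ighj2 and a lower share of Ighj3 than the first in the gaps, as it had in the splices to Igha. The gap reads came to 5487, against 173177 Igha splices.

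V genes in gaps were those nearer to the J segments. The 36 V genes in gaps reached out to Ighv3-8, 892 kb from Ighj1, with none of the 72 functional V genes farther away among them, and the longest gap spanned 891456 nt. Some of these genes had equal counts with a family member, so the 36 need not all be distinct joins. Gaps of Ighv5-2, Ighv5-4, Ighv5-6 and Ighv5-9 to the same base of Ighj2, for example, each had 43 and 10 reads. Leader introns reached out to Ighv1-85 at 2570 kb, and 52.4% of the leader reads lay beyond Ighv3-8. The longest junctions with at least 10 reads were V to D gaps of Ighv3-8 and Ighv3-6 to Ighd1-1, with 840182 to 805960 nt. An Ighv3-6 gap of 805960 nt had 63 and 12 reads. So had an Ighv3-1 gap of 482196 nt to the same base of Ighd1-1. Over the series the longest junction spanned 2383253 nt. Whether the list's makers limited the gap length was not tested.

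A further 291 junctions joined the leader exon of 1 V gene to the V exon of another, with 5665 reads. All 69 of them with at least 10 reads joined members of the same family. For 52 of these 69, either the last 30 bases of both leader exons or the first 30 bases of both V exons were identical in the annotation. Both stretches were identical for 11 of the 69, and 10 had counts equal to those of a leader intron of either gene. An example with both traits is the junction from the Ighv1-62 leader to the Ighv1-53 exon (213680 nt), whose 175 and 297 reads equal those of the Ighv1-53 leader intron. Both leader exons end alike:
Ighv1-53: tcatcctctttttggtagcagcagctacag
Ighv1-62: tcatcctctttttggtagcagcagctacag

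Junctions with equal counts were counted throughout the window. Among the 388 junctions with at least 10 reads, 53 fell into 23 sets with equal counts in both fields and a shared end. Counting each set as 1 junction would remove 2300 reads, 0.411% of the window. Of the 53, 22 were gaps, 19 joined different V genes and 8 were leader introns. The Ighv8-12 leader intron and the Ighv8-14 to Ighv8-12 junction, for example, both had 328 and 190 reads.

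Leader reads were also set beside the gene tables. Over 106 V genes the Spearman correlation between leader reads and expected counts, each summed over both libraries, was 0.773, a description across genes that share libraries and sequence. Of the 113 functional V genes tabled, 15 had no leader junction, and their expected counts were at most 9 (Ighv5-2).

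The contig list, which gives stretches of continuous coverage with a depth-normalized level, held 442 contigs in the window, 322 on the minus and 120 on the plus strand. The contig over Igha (114493054 to 114499526, mm9) had a level of 1700, the 20th highest of 647881 in the series. The next was over Ighv1-22 at 335. The highest level on the plus strand was 9.34.

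On the plus strand the junction with most reads, 26 and 34, was an intron of Tedc1 (114400104 to 114401263), a gene outside the antibody locus. No other plus-strand junction had more than 27 reads.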

How the data were processed

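The authors deposited a junction list and a contig list for the whole series on build mm9, and gene tables for each library on build mm10 with GENCODE M4, per the accompanying notes. The deposited junction values are whole read counts. The deposited contig level is a signal normalized to depth by the authors. The deposited gene tables hold expected counts and TPM. No aligner or caller can be named: not given in the sources used here.

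Junctions were selected by position, classed by length at 70, 150, 1000, 20000 and 200000 nt and named from GENCODE M21 (mm10), by exact lengths for constant genes and by equal distance from the first Igha exon for V, D and J segments, gap ends lying within 12 nt of any annotated exon of a segment. Sequences came from the GENCODE M21 transcripts. No genome of build mm9 was used. Positions are printed with 1-based starts, and builds were never combined.

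Named junctions were the 10 with most reads per strand, the 5 ends with most reads on each side, the 5 longest with at least 10 reads and the 5 most unequal between fields each way at 100 reads. Others, such as gaps, V genes and the unannotated donor, were named after their values were seen. The members and lists were chosen with earlier results of these data known. Some listed genes are not reported here. Fields were compared at 20 reads with 1 read added. In data simulated from the list with counting error only, 93 of 100 junctions changed 2.5-fold, 100 of 100 changed 4-fold and 1799 of 104714 unchanged ones were 2-fold apart. The changed ones were drawn from junctions with at least 50 reads, so recovery from 20 reads was not measured. The labels call the replicates biological, and no test was run with 1 library against 1.

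Alternatives were other minimums, added reads, scalings, borders and single fields. Scripts ran in Python 3.11.15 with pandas 2.3.3, numpy 2.4.6, matplotlib 3.10.9 and scipy 1.17.1.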

Additional observations from a re-analysis of the deposited data

How the results depend on the processing

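The 3054 junctions fell to 1466 with at least 2 reads, 388 with at least 10 and 567 with reads in both fields, while the reads stayed within 1.5 times. In single fields the junctions ranged from 1508 to 2113 and the reads from 210398 to 349341. With length borders raised by 25%, the class of 71 to 150 nt held 1.52% of the reads and that of 20001 to 200000 nt 33.3%; with borders lowered by 20% the latter held 1.74%, since the J splices to Igha then fall into the longest class. With junctions as the weight, the shares were 9.30% (71 to 150 nt), 8.78% (151 to 1000 nt) and 41.8% (20001 to 200000 nt). Junctions at least 2-fold apart numbered 230 of 388 (59.3%) at a minimum of 10 reads, 83 of 160 (51.9%) at 50 and 2124 of 3054 (69.5%) with no minimum, against 23.9%, 15.2% and 50.7% over the series. Scaling within the window, which moves all junctions alike, turned the median log2 ratio to 0.19 in the window and to 0.67 over the series. From introns inside the genes, the class shares were 96.9% (Igha), 1.37% (Ighm), 0.979% (Ighg2b), 0.233% (Ighd), 0.172% (Ighg3), 0.0210% (Ighg2c) and 0.00237% (Ighe). Other pseudocounts and scalings kept the count of junctions apart within 1.5 times. With lengths matched within 1 nt the same number of introns was named, but Ighg2b fitted at 3 places and Igha at 2. Collapsing sets with equal counts, and gap ends within 6 or 24 nt, were chosen after seeing the data. They left 135 junctions apart and 6374 or 6656 gap reads. The Ighe, Ighg2c and Ighd shares rest on few reads. No paired analysis was possible because there is 1 group.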
